A study of Caenorhabditis elegans with 2 samples.

Results

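The mitochondrial ribosome was examined through the 70 nuclear protein-coding genes of Caenorhabditis elegans whose names are mrpl- or mrps- followed by a number in the WBcel235 annotation, out of 19973 nuclear protein-coding genes. Of these genes, 41 carry large subunit names (mrpl-) and 29 carry small subunit names (mrps-). The RefSeq product of 64 of the 70 names a mitochondrial ribosomal protein. The products of 2 genes name the opposite subunit. That of mrps-18C is the large subunit protein uL3m, and that of mrpl-48 is a protein with the small subunit uS10 domain. The latter names a domain and does not give the family of the protein. The product of mrps-27 names an Ig-like domain alone. Every gene was kept under the name that the annotation gives it.

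Occupancy was measured by chromatin immunoprecipitation followed by sequencing (ChIP-seq) with an antibody to GFP in whole hermaphrodites, in a single group of 2 biological replicates. The animals were L4 larvae collected 48 h after hatchlings were synchronized by starvation at the L1 stage. All of them were of strain AGK541, in which the insertion armSi1 on chromosome II drives UNC-130 tagged with GFP from the mex-5 promoter (Pmex5) with a tbb-2 3' UTR and a cb-unc-119(+) marker, in a background of unc-119(ed3) on chromosome III and niDf199 on chromosome IV. The labels describe the tag in 3 ways, as GFP, as eGFP and as GFP-FLAG. Tagged UNC-130 was therefore driven by the promoter of mex-5, a gene expressed in the germ line, and not by that of unc-130 itself, and no second genotype or stage was compared. The animals were taken whole, so weak occupancy in many cells and strong occupancy in few cells cannot be told apart.

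Mitochondrial ribosomes translate the few respiratory chain subunits encoded by mitochondrial DNA, but all of their proteins are made from nuclear genes and imported. Some of these proteins have bacterial counterparts, and others were added to the mitochondrial particle during evolution. In C. elegans, reduced dosage of mitochondrial ribosomal proteins such as MRPS-5 is known to trigger the mitochondrial unfolded protein response and to lengthen life. UNC-130 is a forkhead transcription factor known from the patterning of muscle and neurons, and forkhead proteins typically recognise DNA with the core letters TGTTTA or its complement.

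A gene was scored in a deposited peak list by the strongest peak summit lying between 1000 bp before and 200 bp after its annotated 5' end, and strength was the deposited signal value of the peak. There were 4 lists on the ce11 assembly. The IDR list, selected by the authors for reproducibility between replicates, held 1667 peaks, the pooled list held 16959, the replicate 1 list held 19058 and the replicate 2 list held 18463. The last 3 are relaxed lists that include background. The IDR list consisted of exactly the 1667 strongest pooled peaks, down to a signal of 58.8. Signal has no unit given by the authors and was compared within a list only.

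The 30 bases that hold the summit are shown for 7 of the 11 IDR peaks in these promoters. The choice does not follow signal. The strongest peaks, those of mrpl-15 and mrpl-23, are left out, and the weakest, that of mrpl-12, is shown. They come from the RefSeq genome of the WBcel235 assembly and read 5′ to 3′ on the strand of the gene named. Capitals mark a searched word, GAGAGA for mrpl-35 and TGCGTC, read on the complementary strand, for mrps-7. The other 4 peaks are described by position alone.
mrps-35 (chrV:18981128-18981157): cgaaaacatccatcttcaaattcccgctca
mrpl-18 (chrIII:8144764-8144793): gaggagtacacacagcgcggcctggttttc
mrpl-35 (chrIII:3510078-3510107): acGAGAGAgtgtgtgaaatgGAGAGAcgcg
mrpl-28 (chrII:156066-156095): caacacacgcgtagtcctctcggactacct
mrps-7 (chrIV:14767866-14767895): gaGACGCAgagtatgcaagcatgctccact
mrpl-1 and mrps-24 (chrIV:7709880-7709909, strand of mrpl-1): ggactgatacactgtcacgtcagaatgcac
mrpl-12 (chrIII:10707257-10707286): ctggcgcgttttcggatgggtcggatttat

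Mitochondrial ribosomal protein promoters were widely marked in the relaxed lists and seldom marked strongly. A summit of the pooled list lay in the window of 54 of the 70 genes, or 77.1%, against 30.2% of the other 19903 coding genes. A summit of the IDR list lay in the window of 12 of the 70, or 17.1%, against 7.82% of the other coding genes. The Wilson 95% intervals of the shares were 66.0% to 85.4% for the pooled list and 10.1% to 27.6% for the IDR list. These intervals cover counting error alone, and neighbouring genes that share a summit are not independent. A pooled summit and no IDR summit lay in the window of 42 of the 70 genes, or 60%, against 22.4% of other coding genes. None of the 70 genes lies on the X chromosome, where 1.10% of coding genes had an IDR summit, and among other autosomal coding genes the shares were 32.4% for the pooled list and 8.89% for the IDR list.

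The replicates each gave the same order. In replicate 1, 52 of the 70 genes had a summit in the window, against 30.9% of other coding genes. In replicate 2, 47 of the 70 had one, against 31.6% of other coding genes. The mean share was 70.7% ± 5.05 for mitochondrial ribosomal protein genes and 31.2% ± 0.515 for other coding genes (SD, n = 2 replicates each), so the difference was larger than the spread between the replicates. With 1 group of 2 replicates, no test between samples was possible.

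Beside other marked coding promoters, the median signal was higher in the pooled list and lower in the IDR list. Among genes with a pooled summit, the median pooled signal was 38.8 for mitochondrial ribosomal protein genes and 31.6 for other coding genes. Among genes with an IDR summit, it was 80.5 for mitochondrial ribosomal protein genes and 94.9 for other coding genes. The IDR summits of the 12 genes ranked between 99 and 1533 of 1667, and 5 of the 12 lay in the stronger part of the list when it was divided at its middle rank.

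**Figure D1:**
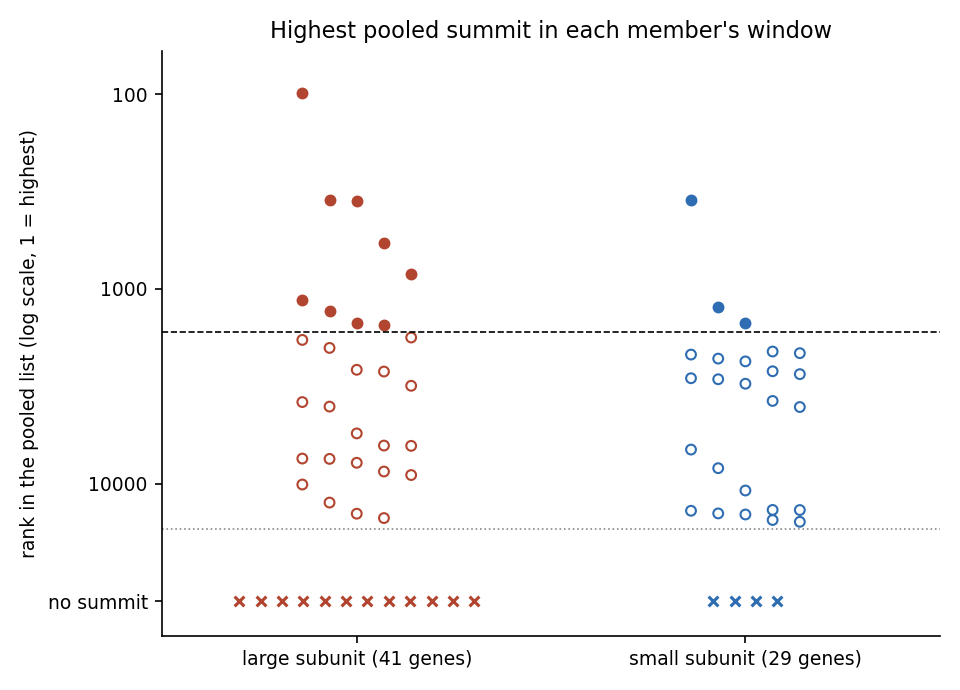
Rank of the strongest pooled summit in the window of each mitochondrial ribosomal protein gene, by subunit name. The vertical axis is a log scale with the strongest peak, rank 1, at the top, and the horizontal positions within a subunit only separate the points. Filled circles are the 12 genes with an IDR summit, open circles the 42 with a pooled summit alone, and crosses the 16 with no pooled summit. The dashed line is the end of the IDR list at rank 1667 and the dotted line the end of the pooled list at rank 16959.

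Among large subunit genes, 9 of 41 had an IDR summit, or 22%, and 29 of 41 had a pooled summit, or 70.7%. Among small subunit genes, 3 of 29 had an IDR summit, or 10.3%, and 25 of 29 had a pooled summit, or 86.2%. Among other coding genes the shares were 7.82% for the IDR list and 30.2% for the pooled list, so the IDR share of small subunit genes was near the background. The order of the subunits thus differed between the lists, and their intervals overlapped in both, at 12% to 36.7% for large subunit genes and 3.58% to 26.4% for small subunit genes in the IDR list. In the pooled list the intervals were 55.5% to 82.4% for large subunit genes and 69.4% to 94.5% for small subunit genes. The difference between the subunits was not tested.

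The strongest promoter belonged to mrpl-15, which encodes uL15m, a core protein of the large subunit with a bacterial counterpart. Its summit lay in intergenic DNA 616 bp upstream of the gene and had a signal of 193.4 in the IDR list, 84.3 in the replicate 1 list and 107.7 in the replicate 2 list. It ranked 99 in the IDR list, 84 in replicate 1 and 138 in replicate 2, and no other coding gene held it in its window.

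Proteins at the rim of the exit tunnel, where the nascent chain leaves the ribosome, were represented by mrpl-23 and mrpl-17. The signal for mrpl-23 (uL23m) was 131.9 in the IDR list, 45.7 in replicate 1 and 80.2 in replicate 2. Its summit stood 981 bp upstream, near the edge of the window, inside fars-1, which encodes a phenylalanine tRNA ligase, and 42 bp from the 5' end of the small nucleolar RNA gene T08B2.13. The signal for mrpl-17 (bL17m) was 69.0 in the IDR list, 31.0 in replicate 1 and 35.8 in replicate 2. Its intergenic summit lay 189 bp upstream of mrpl-17 and 233 bp upstream of the divergent gene vbh-1, an RNA helicase gene. The other tunnel rim genes were weaker, since mrpl-22 had a pooled signal of 22.6, at rank 8634, and mrpl-24 had no summit in any list.

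The central protuberance of the large subunit includes uL18m, the product of mrpl-18. Its signal was 131.3 in the IDR list, 47.5 in replicate 1 and 81.8 in replicate 2. The summit lay 236 bp upstream of mrpl-18 and 150 bp upstream of the divergent gene C14B9.8, a putative phosphorylase kinase subunit gene, so its position did not assign it to mrpl-18 alone.

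The stalk recruits translation factors, and bL12 is its mobile protein in bacteria. The stalk gene mrpl-12 had a signal of 62.4 in the IDR list, 18.6 in replicate 1 and 43.5 in replicate 2, the weakest of the 12. The summit lay 489 bp upstream of mrpl-12 and closer to Y39A1A.22, at 244 bp, and Y39A1A.21, at 250 bp. At the base of the stalk, mrpl-11 had a pooled signal of 17.9, at rank 14209, and mrpl-10 was listed in replicate 1 alone, with a signal of 11.9.

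The L1 protein forms a separate mobile stalk where spent tRNA leaves the ribosome. Its gene mrpl-1 and the small subunit gene mrps-24 stand head to head with their 5' ends 344 bp apart, and they shared a single IDR peak. This peak had a signal of 63.3 in the IDR list, 24.3 in replicate 1 and 40.1 in replicate 2. Its summit lay 194 bp upstream of mrpl-1 and 150 bp upstream of mrps-24, so that the 12 genes had 11 distinct summits. A further gene, emc-6, which encodes a subunit of the ER membrane protein complex, began 159 bp from the same summit. The RefSeq product of mrps-24 is uS3m, a protein at the entry of the mRNA channel in bacterial ribosomes.

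The remaining large subunit genes with an IDR summit were mrpl-35 (bL35m), mrpl-34 and mrpl-28 (bL28m). The signal for mrpl-35 was 104.1 in the IDR list, 41.0 in replicate 1 and 62.6 in replicate 2, with the summit 144 bp upstream of mrpl-35 and 60 bp upstream of the divergent gene M01F1.4. The signal for mrpl-34, whose RefSeq product is mL43, was 87.1 in the IDR list, 31.1 in replicate 1 and 56.3 in replicate 2. Its summit lay 301 bp upstream of mrpl-34 and 109 bp upstream of lid-1. The gene mrpl-28 had a summit of its own 72 bp upstream, the closest of the 12, with a signal of 73.9 in the IDR list, 23 in replicate 1 and 46.5 in replicate 2.

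On the small subunit, mrps-35 (mS35, a protein without a bacterial counterpart) had the strongest summit. Its signal was 131.5 in the IDR list, 45.8 in replicate 1 and 88.3 in replicate 2. The summit lay 163 bp upstream of mrps-35, in a stretch annotated as 5' UTR of sws-1. The other was mrps-7, which encodes the head protein uS7m, with a signal of 70.7 in the IDR list, 34.9 in replicate 1 and 35.3 in replicate 2. Its summit lay 143 bp upstream of mrps-7 and 328 bp upstream of Y57G11C.3. Together with mrps-24 these were the small subunit genes with an IDR summit.

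**Figure D2:**
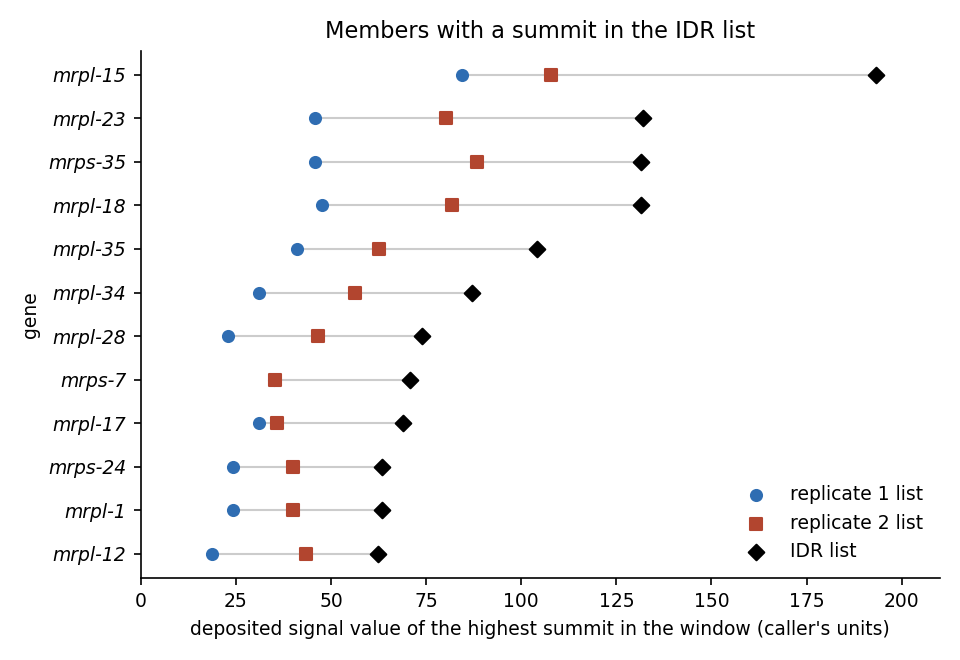
Deposited signal value of the strongest summit in the window of the 12 mitochondrial ribosomal protein genes with an IDR summit, ordered from the strongest at the top. Circles are the replicate 1 list, squares the replicate 2 list and diamonds the IDR list, whose signals are those of the pooled list. The lists are scaled separately, so the order within one symbol is the comparison to read. The symbols of mrps-7 for the replicates coincide at 34.9 and 35.3.

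The genes just under the end of the IDR list were mrpl-55, with a pooled signal of 56.9 at rank 1774, and mrpl-49, with 55.8 at rank 1825. They were followed by mrpl-36, with 52.5 at rank 2006, mrps-14, with 50.8 at rank 2093, mrps-15, with 50 at rank 2134, and mrps-17, with 49.4 at rank 2170. Just inside it were mrpl-12 at rank 1533 and the pair mrpl-1 and mrps-24 at rank 1495. The replicates disagreed for some of these genes. The summit of mrpl-36 ranked 986 in replicate 1 and 8536 in replicate 2, and that of mrpl-49, which faces the cytosolic ribosomal protein gene rpl-28, ranked 6593 in replicate 1 and 1282 in replicate 2.

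Genes of the decoding region and body of the small subunit, which reads the codon, had no IDR summit in 5 of 5 cases, which is also the state of 92.2% of other coding genes. Of these, mrps-15, mrps-17, mrps-12 (40.8) and mrps-16 (22.9) had pooled summits. The fifth, mrps-5, had no summit in any of the 4 lists. Head genes had a pooled summit in 5 of 5 cases, as did 77.1% of all 70 genes and 30.2% of other coding genes. Their pooled signals were 70.7 for mrps-7, 50.8 for mrps-14, 42.1 for mrps-10, 33.1 for mrps-9 and 18.2 for mrps-2. Around the peptidyl transferase centre, where peptide bonds form, mrpl-16 had a pooled signal of 26.1 and mrpl-2 one of 19.0, while mrpl-4 was listed in replicate 1 alone, with 12.1. These groups hold 3 to 5 genes each and are given as values only. They were set by gene name and need not be complete. The genes mrps-24 and mrps-18C, whose RefSeq products are uS3m and uL3m, are in none of them.

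Genes were also divided by their number, where mrpl- numbers up to 36 and mrps- numbers up to 21 follow the bacterial series. In the bacterial series 10 of 41 genes had an IDR summit, or 24.4% (interval 13.8% to 39.3%), and among higher numbers 2 of 29 had one, or 6.90% (interval 1.91% to 22%), against 7.82% of other coding genes. The share among higher numbers was thus at the background. The numbers are an imperfect guide, since the RefSeq family letter of mrpl-34 marks a protein without a bacterial counterpart and those of mrpl-47 and mrps-24 mark proteins with one. For mrpl-48 the letter is that of a domain, uS10, and does not settle whether the protein has a counterpart, but the gene was counted as having one. With the family letter in place of the number, a division chosen after the data were seen, 8 of 32 genes with a counterpart (25%) and 2 of 19 without (10.5%) had an IDR summit. The family letter was not given for 19 genes. In the pooled list the shares were 81.2% with a counterpart and 78.9% without, against 30.2% of other coding genes. The intervals overlapped in each of these comparisons.

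No summit in any list was found for 8 genes, or 11.4%, against 58.1% of other coding genes. They were mrpl-13, mrpl-24, mrpl-30, mrpl-41, mrpl-48, mrpl-51, mrpl-53 and mrps-5. A further 2 genes, mrps-22 and mrps-25, were in the pooled list alone. Another 8 genes were in a replicate list without being in the pooled list, 7 of them in replicate 1 (mrpl-4, mrpl-10, mrpl-21, mrpl-42, mrpl-54, mrps-27 and mrps-28) and mrps-11 in replicate 2.

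A stricter count was taken from the replicates alone. When each replicate list was reduced to its 1667 strongest peaks, 10 genes (14.3%) were marked in replicate 1 and 14 (20%) in replicate 2. The mean share was 17.1% ± 4.04 for mitochondrial ribosomal protein genes and 7.58% ± 0.359 for other coding genes (SD, n = 2 replicates each). Both replicates marked 6 genes, or 8.57%, against 6.08% of other coding genes and 6.95% of other autosomal coding genes, a share near the background. These 6 were mrpl-15, mrpl-18, mrpl-23, mrpl-34, mrpl-35 and mrps-35. Of the 12 genes with an IDR summit, 8 were among the strongest of replicate 1 and 10 among those of replicate 2.

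Summit positions mostly coincided between the replicates. Of the 39 genes with a summit in both replicate lists, 34 had the 2 summits within 200 bp of each other, or 87.2%, against 81.0% of the other coding genes. Across those 39 genes, which share their libraries, the Spearman rho of the ranks in the replicates was 0.634, against 0.773 across the other coding genes in both lists. Of the rest, 13 genes were in replicate 1 but not replicate 2, 8 were in replicate 2 but not replicate 1, and 10 were in neither.

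Scores differed with the arrangement of the genes along the chromosome. In C. elegans, neighbouring genes on one strand can form operons, which are transcribed together from the promoter of the leading gene. A gene was called downstream in a run when a coding gene on the same strand ended within 500 bp before its 5' end, a definition from coordinates that does not establish an operon. By this definition 27 of the 70 genes were downstream, or 38.6% (interval 28.0% to 50.3%), against 18.0% of other coding genes. The median gap to the gene before was 105 bp for these 27 genes and 187 bp for the other downstream genes.

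Downstream genes held few strong summits of their own. An IDR summit was in the own window of 1 of 27 downstream genes, mrpl-23, or 3.70% (interval 0.657% to 18.3%). The share among other downstream genes was 6.54%, inside that interval. Among the 43 genes that stood alone or led a run, 11 had an IDR summit, or 25.6% (interval 14.9% to 40.2%), against 8.10% of other such genes. Pooled summits marked 15 of 27 downstream genes (55.6%), against 39.8% of other downstream genes, and 39 of the 43 that stood alone or led (90.7%), against 28.1% of other such genes. Of the 8 genes in no list, 7 were downstream in a run. The leading gene had a pooled summit in all 7 of these runs, as for 92.6% of the 27 downstream genes and 46.1% of other downstream genes. It had an IDR summit in 2 of the 7. The weakest of these pooled summits, at W04B5.5 ahead of mrpl-30, had a signal of 17.1 at rank 15549. The gene of the 8 that was not downstream was mrpl-51, whose 5' end lies 53 bp from that of the divergent gene T12G3.6.

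The leading genes of these runs were marked more often than their downstream members. An IDR summit lay in the window of the leading gene for 13 of the 27 downstream genes, or 48.1% (interval 30.7% to 66.0%), against 17.6% of other downstream genes. A pooled summit did so for 25 of the 27, or 92.6%, against 46.1% of other downstream genes. With the own window and that of the leading gene counted together, 25 of the 70 genes had an IDR summit, or 35.7% (interval 25.5% to 47.4%), against 10.6% of other coding genes. The leading genes named here fall outside the rule for named genes and were chosen after their values were seen.

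**Figure D3:**
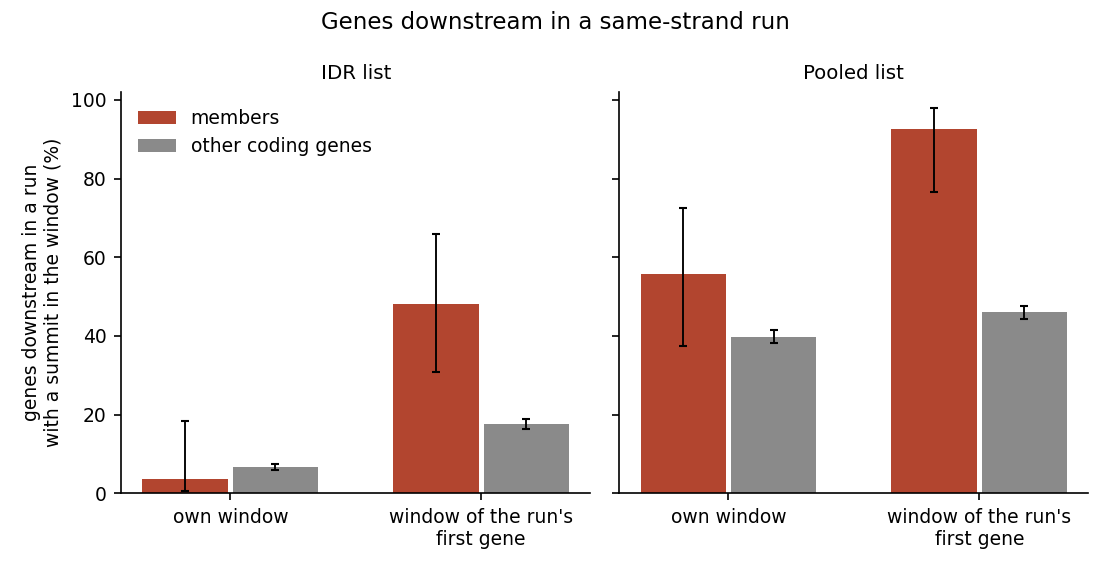
Share of genes downstream in a same-strand run that had a summit in their own window or in the window of the gene that leads the run, for the IDR list (left) and the pooled list (right). Red bars are the 27 mitochondrial ribosomal protein genes downstream in a run and grey bars the 3591 other downstream coding genes, with Wilson 95% intervals. In the IDR list the red bars stand at 3.70% for the own window and 48.1% for the leading gene.

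The 13 downstream genes with a marked leader followed 12 leading genes. The strongest was F29B9.11, which encodes a cytochrome c oxidase VIIc polypeptide and precedes mrps-21. Its signal was 225.3 in the IDR list, 82.0 in replicate 1 and 140.9 in replicate 2, whereas the window of mrps-21 itself had a pooled signal of 17.9. This contrast depends on the edge of the window. The 5' end of F29B9.11 lies 684 bp before that of mrps-21 and the summit 363 bp further upstream, just outside the 1000 bp window of mrps-21. Next were tag-124, a putative tRNA pseudouridine synthase gene that leads the run of mrpl-53, with an IDR signal of 145.1, nrde-2, ahead of mrps-14, with 127.4, and atp-2, the beta subunit of ATP synthase, with 124.3, whose run holds mrps-26.

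Lower in the list were T14B4.3 before mrps-18.C (123.9), the proteasome gene rpn-3 before mrpl-32 (118.8), eif-3.E in the run of mrps-30 (107.4) and clsp-1 before mrpl-54 (104.5). The weakest were vps-37 before mrpl-48 (74.1), znf-706 in the run of mrpl-42 (73.0), F21D5.7 in the run of mrps-33 (66.8) and natc-1, which leads a run of mrps-2 and mrpl-4 (60.3). For 9 of the 12 leading genes, the leader was also the coding gene nearest to the summit. The exceptions were znf-706, clsp-1 and nrde-2, whose summits were closer to cpna-3 (161 bp), eef-2 (18 bp) and atad-3 (437 bp). The gene mrps-5 follows sel-1 after a gap of 103 bp, and the sel-1 window had a pooled signal of 42.2, at rank 2728, and no IDR summit.

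Many of these genes have a divergent neighbour. A coding gene on the opposite strand began within 1000 bp upstream of 26 of the 70 genes, or 37.1%, against 17.7% of other coding genes. Of these 26, 8 had an IDR summit, or 30.8% (interval 16.5% to 50%), against 22.8% of other coding genes with such a partner. Of the 44 without a partner, 4 had an IDR summit, or 9.09% (interval 3.59% to 21.2%), against 4.61% of other coding genes without one. In both classes the interval held the value of the other coding genes. In the pooled list the shares were 88.5% with a partner and 70.5% without for mitochondrial ribosomal protein genes, and 51.3% with a partner and 25.7% without for other coding genes.

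Several summits were shared with a neighbour. Of the 12 genes with an IDR summit, 7 were the coding gene nearest to it, or 58.3%, against 67.5% of other coding genes with an IDR summit. These 7 were mrpl-15, mrpl-23, mrps-35, mrpl-28, mrps-7, mrpl-17 and mrps-24. Nearness was taken to the 5' ends of coding genes alone. The summit of mrpl-23 lay 981 bp from its 5' end, inside fars-1 and 42 bp from a small nucleolar RNA gene. A tRNA gene began within 500 bp of 0 of the 11 distinct summits, against 5.07% of those of other coding genes, too few summits to tell these apart.

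Summits mostly stood upstream of the 5' end. All 12 IDR summits were upstream, as were 96.1% of those of other coding genes. Their median distance was 191.5 bp, against 249 bp for other coding genes. In the pooled list the median distance upstream was 175.5 bp for mitochondrial ribosomal protein genes and 242 bp for other coding genes. Of the 54 genes with a pooled summit, 35 had it within 300 bp upstream, or 64.8%, against 45.5% of other coding genes, and 4 had it downstream of the 5' end. The distances are to the annotated 5' end of the gene, which for a trans-spliced transcript need not be the start of transcription. Of the 11 distinct IDR summits, 9 were intergenic, or 81.8%, against 80.7% of those of other coding genes.

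**Figure D4:**
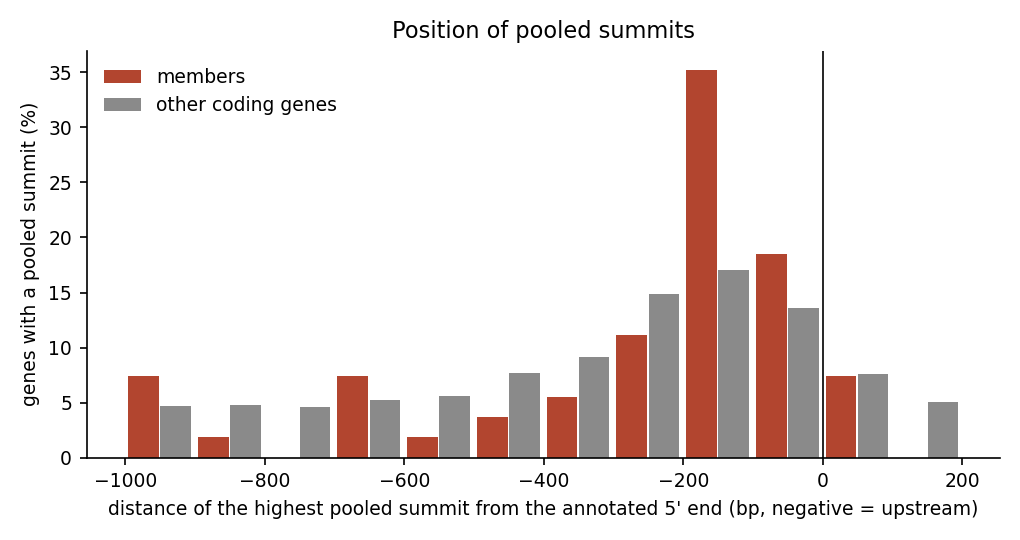
Distance of the strongest pooled summit from the annotated 5' end, in bins of 100 bp, as a share of the 54 mitochondrial ribosomal protein genes (red) and of the 6020 other coding genes (grey) with a pooled summit in the window. Negative distances are upstream. The tallest red bar, from 200 to 100 bp upstream, holds 19 genes.

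Short words were searched on both strands in the 101 bases centred on each summit. The forkhead word TGTTTA was in 0 of the 11 IDR windows of mitochondrial ribosomal protein genes, against 7.94% of other IDR windows. It was in 9 of 53 pooled windows, or 17% (interval 9.2% to 29.2%), against 8.62% of other pooled windows in coding promoters and 10.2% of all coding promoters, taken as 101 bases centred 150 bp upstream of the 5' end. The longer forkhead word GTAAACA was in 0 of 53 pooled windows, against 2.16% of other pooled windows and 1.78% of all coding promoters. The 9 genes with TGTTTA were mrps-14, mrps-31, mrps-26, mrps-18B, mrpl-20, mrpl-32, mrps-18C, mrps-34 and mrps-30, with pooled signals between 17.2 and 50.8. The summits of the strongest 2 are shown with the word in capitals, to show where it stands beside the summit.
mrps-14 (chrII:10242663-10242692): acagattaTGTTTAtttttgtattataatt
mrps-31 (chrIII:3630455-3630484): gcacccgcgtgtTGTTTAgccaatatttct

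The other words gave low counts. GAGAGA was in 2 of the 11 IDR windows, those of mrpl-15 and mrpl-35, against 11.8% of other IDR windows and 8.42% of all coding promoters. TGCGTC was in 1, that of mrps-7, against 10.3% of other IDR windows and 3.44% of all coding promoters. TTTCAG, the letters of the splice acceptor, was in 0 of the 11, against 9.53% of other IDR windows and 15.1% of all coding promoters. The median GC content was 41.6% in the 11 IDR windows of mitochondrial ribosomal protein genes, against 45.5% in other IDR windows and 33.7% in all coding promoters. In the 53 pooled windows, GAGAGA was in 6 (11.3%), against 11.3% of other pooled windows, TGCGTC in 2 (3.77%), against 7.36%, and TTTCAG in 7 (13.2%), against 14.4%. A word in a window is a match of letters, and its absence says only that these letters were not found there.

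Other genes that mitochondria depend on were scored in the same way. The respiratory chain and ATP synthase list was taken mainly by gene name. It therefore includes cox-14 and cox-16, whose products are assembly proteins, and leaves out the cytochrome c oxidase gene F29B9.11. The list of mitochondrial gene expression held genes of translation factors, tRNA charging and the copying of mitochondrial DNA. It also held others, such as dap-3, rpom-1 and mma-1. Of its 23 genes, 6 had an IDR summit, or 26.1%. They were led by the mitochondrial glutamate tRNA ligase gene ears-2 with an IDR signal of 251.2, the elongation factor gene tufm-2 with 160.9, yars-2 with 153.0 and gfm-1 with 136.4. Of 46 genes of the respiratory chain and ATP synthase, 18 had one, or 39.1%, led by cox-5B with 278.2, atp-5 with 231.5, cox-5A with 204.6 and atp-1 with 144.4. Of 23 genes of protein import and chaperones, 10 had one, or 43.5%, led by the chaperonin gene hsp-60 with 267.4, tomm-7 with 127.9, the mitochondrial HSP70 gene hsp-6 with 115.7 and ddp-1 with 108.7. Of 81 genes of the cytosolic ribosome, 54 had one, or 66.7%, led by rpl-3 with 478.3, rpl-15 with 435.4, rpl-35 with 430.2 and rps-23 with 369.5.

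Not all of these summits were closest to the gene of the list. Those of hsp-60 (644 bp), tomm-7 (850 bp) and hsp-6 (399 bp) stood nearer to Y22D7AL.10 (169 bp), ufm-1 (216 bp) and C37H5.5 (201 bp), in that order, and those of tufm-2, atp-5 and rps-23 were also nearer to another gene. With each summit given to its nearest coding gene alone, the IDR shares were 10% for the mitochondrial ribosome, 21.7% for mitochondrial gene expression, 26.1% for the respiratory chain and ATP synthase, 21.7% for import and chaperones, 37% for the cytosolic ribosome and 5.34% for other coding genes.

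The IDR share of mitochondrial ribosomal protein genes, 17.1%, was thus below those of the 4 other lists and above that of all other coding genes. Its interval, 10.1% to 27.6%, did not overlap that of the cytosolic ribosome, 55.9% to 76.0%, and overlapped those of the other 3 lists. In the pooled list the shares lay closer together, at 77.1% for the mitochondrial ribosome, 73.9% for mitochondrial gene expression, 82.6% for the respiratory chain and ATP synthase, 87.0% for import and chaperones and 92.6% for the cytosolic ribosome. Among the strongest peaks of both replicates they were 8.57% for the mitochondrial ribosome, 26.1% for mitochondrial gene expression, 28.3% for the respiratory chain and ATP synthase, 34.8% for import and chaperones and 58.0% for the cytosolic ribosome. The differences between lists were not tested.

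**Figure D5:**
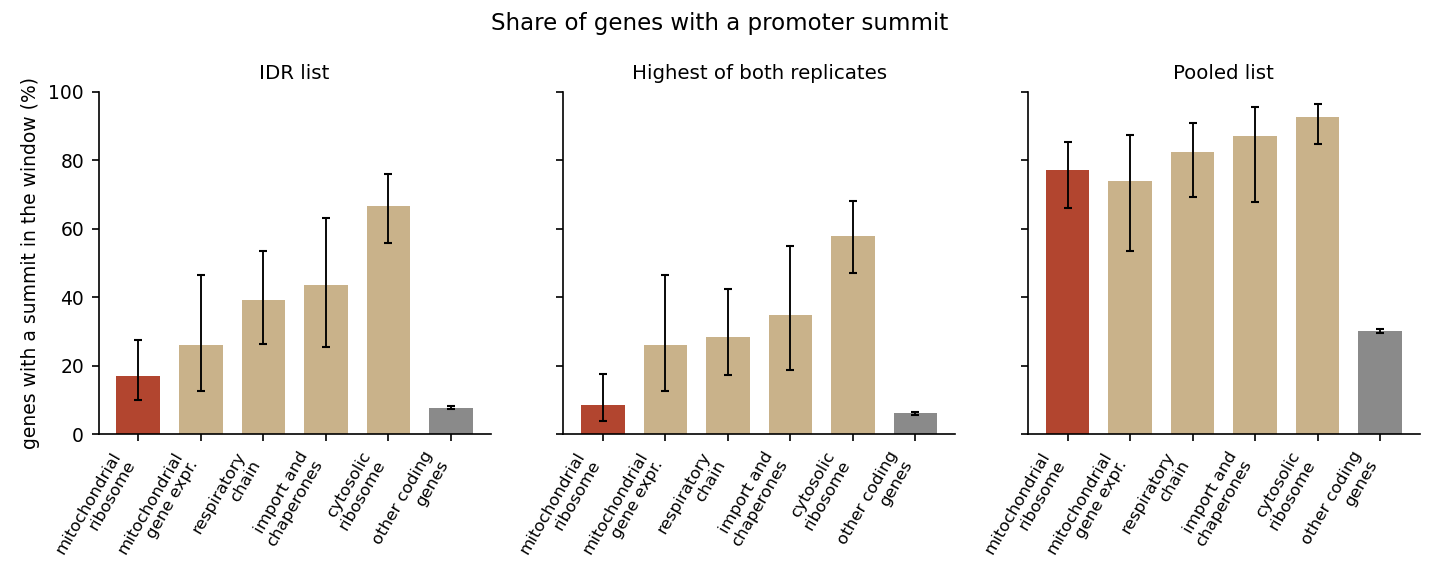
Share of genes with a summit in the promoter window in the IDR list, among the 1667 strongest peaks of both replicates, and in the pooled list, with Wilson 95% intervals. Bars run from the 70 mitochondrial ribosomal protein genes (red) through 23 genes of mitochondrial gene expression, 46 of the respiratory chain and ATP synthase, 23 of import and chaperones and 81 of the cytosolic ribosome (tan) to the 19903 other coding genes (grey), which include the tan lists. The mitochondrial ribosome stands at 17.1%, 8.57% and 77.1% in the 3 panels, and the other coding genes at 7.82%, 6.08% and 30.2%.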

How the data were processed

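The deposited files were peak lists from 1 group of 2 biological replicates, and the ce11 lists were used, while the ce10 lists were not used here. Signal values (column 7) are those of the authors' peak caller, as deposited. Summits are the start of a peak plus the deposited offset (column 10). Per the file listings, peaks were called on each replicate and on pooled reads against a shared control. The sources used here do not name the aligner, the caller or the IDR threshold. Without read counts the depth is unknown. Per-sample columns left without a sample numbered 0. Genes came from Ensembl release 115 of WBcel235, which is ce11, and products and sequence from RefSeq.

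Scripts in Python 3.11.15 with numpy 2.4.6, scipy 1.17.1 and matplotlib 3.10.9 scored each gene, after the scoring was tested on simulated data. Mitochondrial peaks were left out. A list was described by its counts beside all other coding genes, and intervals are Wilson intervals at the 95% level. Named genes were those with an IDR summit, the next 6 by pooled rank, those in no list, those sharing a summit, the role groups, mrps-5 and the 4 strongest of each other list. The role groups list included mrpl-3, and the gene expression list 7 names, that matched no gene. Members and lists were chosen with earlier results of these data known. Alternatives changed the window, the 5' end, the assignment of summits, the list length, the run scoring and the replicates.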

Additional observations from a re-analysis of the deposited data

How the results depend on the processing

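The count of 12 genes with an IDR summit stayed between 10 and 15 with a window of 500 bp upstream, one reaching 500 bp downstream, any annotated transcript start, overlap of the whole peak, or tRNA neighbours left out. From 1 replicate alone it ranged from 10 to 14, with 7 to 10 large subunit genes and 3 to 4 small subunit genes. Giving each summit to its nearest coding gene alone left 7 genes, 4 of them of the large subunit. Under that rule 3 genes were among the strongest of both replicates, or 4.29%, against 3.87% of other coding genes, a share near the background. Scoring at the leading gene of the run gave 24 genes, 14 large and 10 small, 11 of them shared with the 12. With that scoring 13 genes were among the strongest of both replicates, or 18.6%, against 7.76% of other coding genes. The stronger part of the IDR list held 5, with 4 large and 1 small. Overlap of the whole peak gave 5 small subunit genes. With lists of 2 times as many peaks, both replicates marked 17 genes (24.3%, against 9.38% of other coding genes), and with lists of 833 peaks they marked 5 (7.14%, against 3.45%). The median summit position was -191.5 bp, -176 bp with the narrower window and -236 bp in the stronger part of the list, and it ranged from -169 to -161 bp from 1 replicate alone. For other coding genes, the nearest gene rule gave 5.34%, the leading gene 9.81% and the stronger part of the list 4.52%. The cause of these shifts was not tested beyond what each setting changes by construction. No paired analysis was possible because all samples belong to 1 group. Unknown depth and 2 replicates limit every share.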

Other observations

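The shares varied between chromosomes. On chromosome I, 4 of 15 mitochondrial ribosomal protein genes had an IDR summit, or 26.7%, against 11.9% of other coding genes there. On chromosome IV, 3 of 11 had one, or 27.3%, against 8.59%, and 2 of these shared a single peak. On chromosome V, 1 of 10 had one, or 10.0%, against 4.94%. On chromosomes II and III the shares were at the level of other coding genes, with 1 of 12, or 8.33%, against 8.67% on chromosome II and 3 of 22, or 13.6%, against 13.7% on chromosome III. In the pooled list the shares were above those of other coding genes on each of the 5 autosomes, at 73.3% against 43.7% on I, 75% against 30.9% on II, 90.9% against 46.4% on III, 81.8% against 30% on IV and 50% against 21.1% on V. The differences between chromosomes were not tested.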
